A study of Mus musculus with 4 samples.

Results

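The genes of the cytosolic ribosome were examined in 4 populations of mouse CD4+ CD8- thymocytes, each measured on 1 Affymetrix mouse genome array. Members were the genes whose symbol in the platform annotation, given alone for a probe set, names a protein of the large (Rpl, Rplp) or small (Rps, Rpsa) subunit; S6 kinases and pseudogene symbols were left out. This gave 49 genes of 18193 named on the array, 26 of the large and 23 of the small subunit, each represented by its brightest probe set. Of these, 44 lay above the floor of 3.89 log2 on all 4 arrays and 5 (Rpl3l, Rpl39l, Rps4l, Rps16 and Rps27) lay below it on all 4. No member was above the floor on some arrays only. The floor is a high percentile of the signal of genes silent in T cells. Values are log2 signals, quantile normalized over the arrays.

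The populations were purified, first on magnetic beads and next by fluorescence-activated sorting, from females of 6 to 8 weeks. Foxp3-null cells are GFP+ thymocytes of Foxp3(gfpko/wt) heterozygotes, which carry a GFP-tagged knockout allele beside a wild-type one; Foxp3 is X-linked, so such females also have cells that use the intact allele. Foxp3-fusion cells are GFP+ thymocytes of Foxp3(gfp/gfp) mice, in which a GFP-Foxp3 fusion protein marks regulatory T cells. GFP- CD25+ and GFP- CD25- cells came from Foxp3(gfp/gfp) mice too. Backcrossing to C57BL/6 from 129/Sv had reached generation 2 in the Foxp3(gfpko/wt) mice and generations 4 to 6 in the Foxp3(gfp/gfp) mice, so genotype, strain background and array cannot be told apart. With 1 array per population every difference below is between 2 arrays, without replicates and without a p-value.

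Foxp3 read 7.27 log2 in Foxp3-null and 8.83 in Foxp3-fusion cells, against 2.88 in GFP- CD25+ and 2.76 in GFP- CD25- cells. Il2ra, the gene of CD25, read 9.10, 10.36, 7.85 and 3.62 in that order. All 5 CD4 T cell markers on the array were above the floor in every population, and all 3 erythroid markers and the 1 gamma delta T cell marker were below it. Of 7 dendritic cell and macrophage markers, 3 were above the floor in Foxp3-null, 2 in Foxp3-fusion, 2 in GFP- CD25+ and 1 in GFP- CD25- cells. Their summed signal was 7.38, 6.85, 6.31 and 6.17 log2 in the same order. The 6 thymic epithelium markers, 2 of them above the floor on each array, summed to 7.65, 7.03, 7.49 and 7.29, and the 4 NK cell markers to 6.65, 6.36, 5.28 and 6.94, highest in GFP- CD25- cells, with 1, 1, 1 and 2 above the floor. The 5 B cell markers summed to 6.23, 5.55, 5.71 and 5.43, with 1, 2, 1 and 1 above the floor, and the 2 CD8 T cell markers to 5.26, 5.16, 5.34 and 5.32, with 1 above it on each array. Their part in the results was not tested. The 5' end of transcripts was better kept on the GFP+ arrays. For actin, the 3' control probe set exceeded that of the 5' end by 6.99 log2 in Foxp3-null and 5.22 in Foxp3-fusion cells, against 9.27 in GFP- CD25+ and 8.39 in GFP- CD25- cells. For Gapdh the gaps were 4.92, 4.62, 6.66 and 6.45. These gaps move with the main result below, and their part in it was not tested.

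Ribosomal proteins and ribosomal RNA form the large subunit, which joins amino acids, and the small subunit, which reads the mRNA. Their mRNAs are among the most abundant in a cell and typically start with a run of pyrimidines (the 5' TOP tract), through which mTORC1 signalling and the RNA-binding protein LARP1 control their translation together. In T cells ribosome production increases when a resting cell is activated and begins to grow. In mice the large subunit protein Rpl22 has a particular role in the development of alpha beta T cells. The proteins are made in matched amounts, although mRNA levels of single genes can differ.

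The ribosomal protein genes were in general higher in the GFP+ than in the GFP- populations. Of the 44 measured, 26 read higher on both GFP+ arrays than on either GFP- array, or 59.1%, against 20.5% of the 7679 genes above the floor on all arrays. On the values as deposited, without quantile normalization, the number was 27. The share of all genes was not computed on that scale, so this count has no background beside it. The reverse order, both GFP+ arrays below both GFP- arrays, was seen for 1 member, Rps25, and for 16.4% of all genes. In such bulk samples, fewer cells of a type and less RNA per cell cannot be told apart. The Foxp3-fusion array held the highest of the 4 values for 25 members and the Foxp3-null array for 15, whereas each GFP- array did so for 2. The lowest value lay on the GFP- CD25- array for 21 members and on the GFP- CD25+ array for 15. These counts of highest and lowest values were not made over all genes, so they only describe the members.

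**Figure D1:**
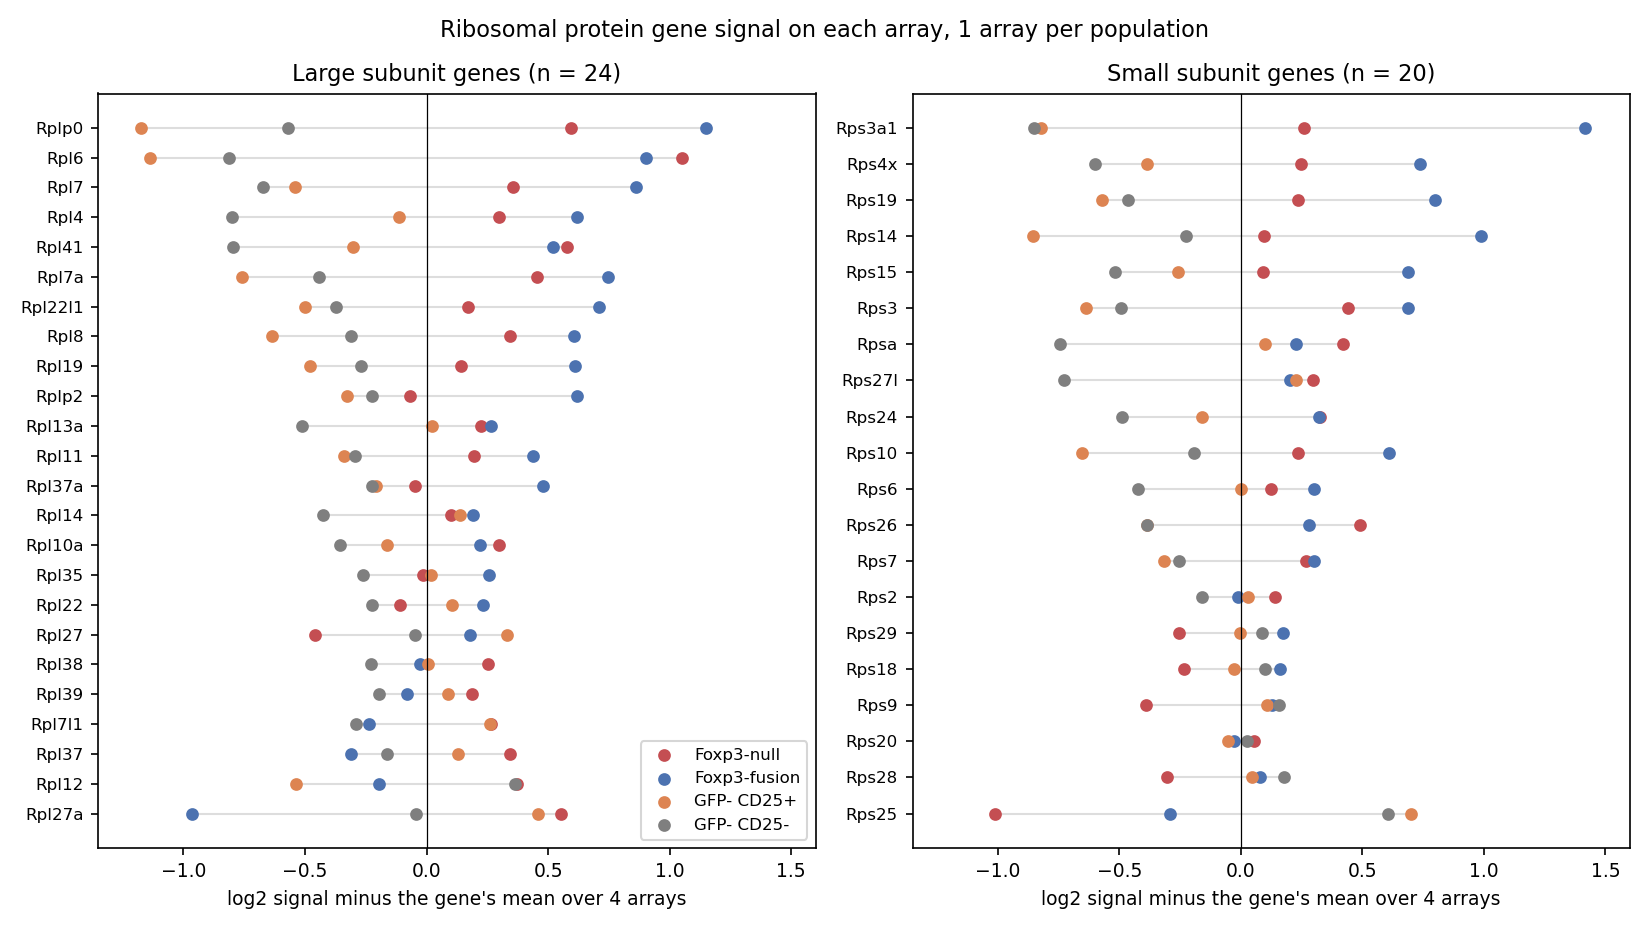
Log2 signal of each of 44 ribosomal protein genes on each array, less the gene's mean over the 4 arrays (x axis), for 24 large subunit genes (left) and 20 small subunit genes (right). Each point is 1 array and genes are ordered by the difference between Foxp3-fusion and GFP- CD25- cells. Both GFP+ points lie right of both GFP- points for 26 genes, and left of them only for Rps25.

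The comparison of Foxp3-fusion with GFP- CD25- cells sets regulatory T cells against other CD4 thymocytes, both from Foxp3(gfp/gfp) mice. Of 44 members, 13 were at least 2-fold higher (29.5%, against 9.69% of 8621 genes measured) and 0 were at least 2-fold lower (against 5.07%). As deposited, 17 were higher (38.6%, against 14.2%) and 0 lower (against 3.5%). The median member was 0.73 log2 higher, with quartiles of 0.14 and 1.18, while the median over all genes was -0.05. Of the members, 37 were above 0 and 7 below, where 44.5% of all genes were above 0.

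Rps3a1, a small subunit protein, read 14.06 log2 in Foxp3-fusion and 11.79 in GFP- CD25- cells, a 4.82-fold difference. It read 12.90 in Foxp3-null and 11.82 in GFP- CD25+ cells. Both GFP- arrays were thus close to each other, with Foxp3-null cells between them and Foxp3-fusion cells.

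Rplp0 encodes the protein on which the stalk of the large subunit is built, where elongation factors bind. It read 11.24 in Foxp3-null, 11.80 in Foxp3-fusion, 9.47 in GFP- CD25+ and 10.08 in GFP- CD25- cells. The range over the arrays, 2.33 log2, was the widest of the 44, followed by 2.27 for Rps3a1 and 2.19 for Rpl6. Foxp3-fusion cells exceeded GFP- CD25- cells 3.30-fold for Rplp0. Rplp2, another stalk protein, read 12.85, 13.54, 12.59 and 12.69 over the 4 arrays in the order used for Rplp0, so it stood apart mainly on the Foxp3-fusion array.

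Rpl6, a structural protein of the large subunit, was as high in Foxp3-null as in Foxp3-fusion cells. It read 12.46 and 12.32 there, against 10.28 in GFP- CD25+ and 10.60 in GFP- CD25- cells. Foxp3-fusion cells were 3.29-fold above GFP- CD25- cells. Rpl7, Rpl4, Rpl41 and Rpl7a, all large subunit genes, were 2.90-fold, 2.68-fold, 2.49-fold and 2.28-fold higher in Foxp3-fusion than in GFP- CD25- cells.

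Among small subunit genes, Rps4x, the X-linked gene of protein S4, was 2.53-fold higher in Foxp3-fusion cells and Rps19 2.40-fold. Rps19 takes part in maturation of the small subunit and is mutated in human Diamond-Blackfan anaemia. It read 13.27 in Foxp3-null, 13.83 in Foxp3-fusion, 12.46 in GFP- CD25+ and 12.57 in GFP- CD25- cells. Rps14, another small subunit protein, differed 2.32-fold between Foxp3-fusion and GFP- CD25- cells, with Foxp3-fusion the higher. Rps15 was 2.31-fold higher and Rps3, which lines the mRNA entry, 2.27-fold. The last of the 13 was Rpl22l1, the paralog of Rpl22, at 2.12-fold.

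Start site sequences of the members are shown because the genes are known for shared control elements, and here some moved together and others did not. RefSeq (GRCm38.p6) gave a promoter for 43 of the 49. In each line below, 60 bases before and 25 bases from the annotated start are given on the gene's strand, with capitals for CCGGAAG (the core bound by ETS factors such as GABP, on either strand) and for runs of at least 8 pyrimidines within 25 bases of the start. The first 4 genes passed 2-fold in Foxp3-fusion over GFP- CD25- cells. The last 4 did not on their brightest probe sets. Those differences were -0.90 for Rps25, -0.10 for Rps28, 0.06 for Rps18 and 0.52 log2 for Rpl35. Other probe sets of Rps18 and Rpl35 reached 1.04 and 1.37 log2, so for these genes the grouping rests on the choice of probe set. These windows, chosen after the values were seen, show capitals in both groups of genes, and none in Rplp0 and Rps28.
Rps3a1, chr3:86142644-86142728, minus strand: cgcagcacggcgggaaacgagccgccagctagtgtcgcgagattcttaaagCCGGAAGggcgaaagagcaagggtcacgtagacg
Rpl6, chr5:121204441-121204525, plus strand: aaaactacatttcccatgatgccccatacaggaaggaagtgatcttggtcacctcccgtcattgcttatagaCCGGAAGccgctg
Rplp0, chr5:115559407-115559491, plus strand: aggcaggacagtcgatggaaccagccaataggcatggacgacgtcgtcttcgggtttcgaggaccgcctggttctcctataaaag
Rpl7a, chr2:26910747-26910831, plus strand: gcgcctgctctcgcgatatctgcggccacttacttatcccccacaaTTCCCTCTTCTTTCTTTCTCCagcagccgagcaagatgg
Rps25, chr9:44407654-44407738, plus strand: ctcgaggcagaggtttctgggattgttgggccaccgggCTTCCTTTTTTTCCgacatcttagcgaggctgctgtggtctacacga
Rps28, chr17:33824538-33824622, minus strand: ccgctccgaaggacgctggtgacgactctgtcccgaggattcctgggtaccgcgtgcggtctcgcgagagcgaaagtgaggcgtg
Rps18, chr17:33955641-33955725, minus strand: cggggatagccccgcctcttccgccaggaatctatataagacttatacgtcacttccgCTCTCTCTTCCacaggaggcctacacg
Rpl35, chr2:39005107-39005191, minus strand: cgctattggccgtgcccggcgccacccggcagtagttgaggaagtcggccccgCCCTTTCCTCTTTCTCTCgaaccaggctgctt

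Over the whole window of 250 bases before and 50 from the start, both strands searched, CCGGAAG was found in 21 of 43 members, or 48.8%, against 9.12% of 27025 promoters. The pyrimidine run, searched on the gene's strand only, was present in 21 of 43, against 19.4% of promoters. TCTCGCGA was found in 8 members (18.6%, against 1.08%), CTTTCC, which can lie within a pyrimidine run, in 19 (44.2%, against 26.3%), AAGATGG in 7 (16.3%, against 6.48%) and TATAAA in 5 (11.6%, against 14.2%). For 7 members RefSeq lists several starts, and the first was used, here and for all promoters. Members with CCGGAAG had a median difference of 0.70 log2 between Foxp3-fusion and GFP- CD25- cells over 20 measured genes, and those without it 0.78 over 19. For the pyrimidine run the medians were 0.72 with it and 0.79 without. For TATAAA the median was 0.15 over the 5 genes with it and 0.73 over 34 without it. The medians with and without lay close together for the first 2 of these motifs and apart for TATAAA, which few members hold.

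Foxp3-null cells were set against GFP- CD25- cells to describe cells that use the Foxp3 locus from the knockout allele. Of 44 members, 8 were at least 2-fold higher (18.2%, against 10.4% of 8798 genes measured), and 1 was at least 2-fold lower (2.27%, against 7.23%). The median member was 0.54 log2 higher, where the median over all genes was 0.18. Of the 44 members, 38 were above 0, where 63.8% of all genes were. On the values as deposited 2 of 44 were higher (4.55%, against 5.52% of all genes) and 1 lower (2.27%, against 10.9%), with a median of 0.21 against 0.00. The share of members past 2-fold thus lay above that of all genes on the normalized scale and near it on the deposited scale.

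Rpl6 led with a 3.64-fold difference, followed by Rpl41 at 2.59-fold, Rplp0 at 2.25-fold and Rpsa at 2.24-fold. Rpsa is a small subunit protein also known as the laminin receptor precursor. It read 13.01 in Foxp3-null, 12.82 in Foxp3-fusion, 12.69 in GFP- CD25+ and 11.85 in GFP- CD25- cells, so the GFP- CD25- array alone was low. Without probe sets ending in _x_at, _s_at or _a_at, Rpl41 turned to -1.20 log2. On the deposited scale Rpl6 and Rpl41 were 2.88-fold and 2.30-fold higher, and Rplp0 and Rpsa 1.80-fold and 1.90-fold.

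Rps25, a small subunit protein used in initiation from some viral entry sites, ran the other way. It read 7.89 in Foxp3-null and 8.60 in Foxp3-fusion cells, against 9.59 in GFP- CD25+ and 9.50 in GFP- CD25- cells. Foxp3-null cells were 3.06-fold below GFP- CD25- cells. Only 1 probe set of the array names Rps25 alone, so its order has no second probe set beside it.

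Foxp3-null cells were also set against Foxp3-fusion cells, the comparison closest to the effect of Foxp3 named in the series title. Ribosomal protein genes were modestly lower in Foxp3-null cells. Their median difference was -0.27 log2 where all genes had 0.14. Of 44 members, 29 were below 0, where 58.9% of all genes were above 0. At least 2-fold higher was 1 member (2.27%, against 9.48% of 8968 genes measured) and at least 2-fold lower was 1 (2.27%, against 9.24%). Relative to the median gene, members were lower by 0.41 log2, and by 0.42 on the deposited scale. On that scale 42 of 44 were below 0, and only 37.8% of all genes were above 0. There 7 were at least 2-fold lower (15.9%, against 18.7% of all genes) and 0 higher (against 4.54%). With each array centred on the brightest 10% of other genes the median member difference was -0.07. Then 24 of 44 were below 0, with 0 at least 2-fold lower. All genes then had a median of 0.22, with 64.3% above 0, so members were still lower than the median gene by 0.30 log2.

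The 2 members past 2-fold were Rps3a1 and Rpl27a. Rps3a1 was 2.23-fold lower in Foxp3-null cells by the values above. Rpl27a, a large subunit protein, read 8.87 in Foxp3-null and 7.35 in Foxp3-fusion cells, a 2.87-fold difference, and 8.78 in GFP- CD25+ and 8.28 in GFP- CD25- cells. The Foxp3-fusion array was therefore the one set apart, and on the deposited scale the difference was 1.85-fold. The other Rpl27a probe set lay below the floor everywhere.

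Among GFP- cells, the ribosomal protein genes of CD25+ and CD25- cells were close together. Of 44 members, 0 were at least 2-fold higher (against 3.95% of 8575 genes measured) and 0 at least 2-fold lower (against 4.43%). As deposited, 0 were higher (against 2.71%) and 1, Rpl12, was lower (2.27%, against 6.85%). The median was 0.06 log2, beside 0.09 for all genes, and the quartiles were -0.13 and 0.33. Of the members, 25 were above and 19 below 0, where 59.7% of all genes were above 0. Members nearest to 2-fold were Rps27l at 0.95 log2, Rpsa at 0.84 and Rpl4 at 0.69 upward. Rpl12 at -0.90 was the lowest, then Rps14 at -0.63 and Rplp0 at -0.60. CD25 was the basis of this sort, and no ribosomal gene was.

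Against GFP- CD25+ cells, Foxp3-null cells had 5 of 44 members at least 2-fold higher (11.4%, against 8.23% of 8783 genes measured) and 1 lower (2.27%, against 7.07%). Rpl6 was 4.55-fold higher, Rplp0 3.41-fold, Rpl7a 2.32-fold, Rps3a1 2.12-fold and Rps3 2.11-fold, and Rps25 was 3.27-fold lower. As deposited, 2 were higher (4.55%, against 6.07%) and 1 lower (2.27%, against 7.8%). Foxp3-fusion cells had 13 members at least 2-fold higher (29.5%, against 11.3% of 8783 genes) and 1 lower (2.27%, against 7.9%). Rplp0 was 5.01-fold higher, Rps3a1 4.72-fold, Rpl6 4.12-fold and Rps14 3.59-fold, while Rpl27a was 2.69-fold lower. As deposited, 17 were higher (38.6%, against 20.1%) and 0 lower (against 3.42%). These comparisons share arrays with those above, so they are not separate evidence.

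**Figure D2:**
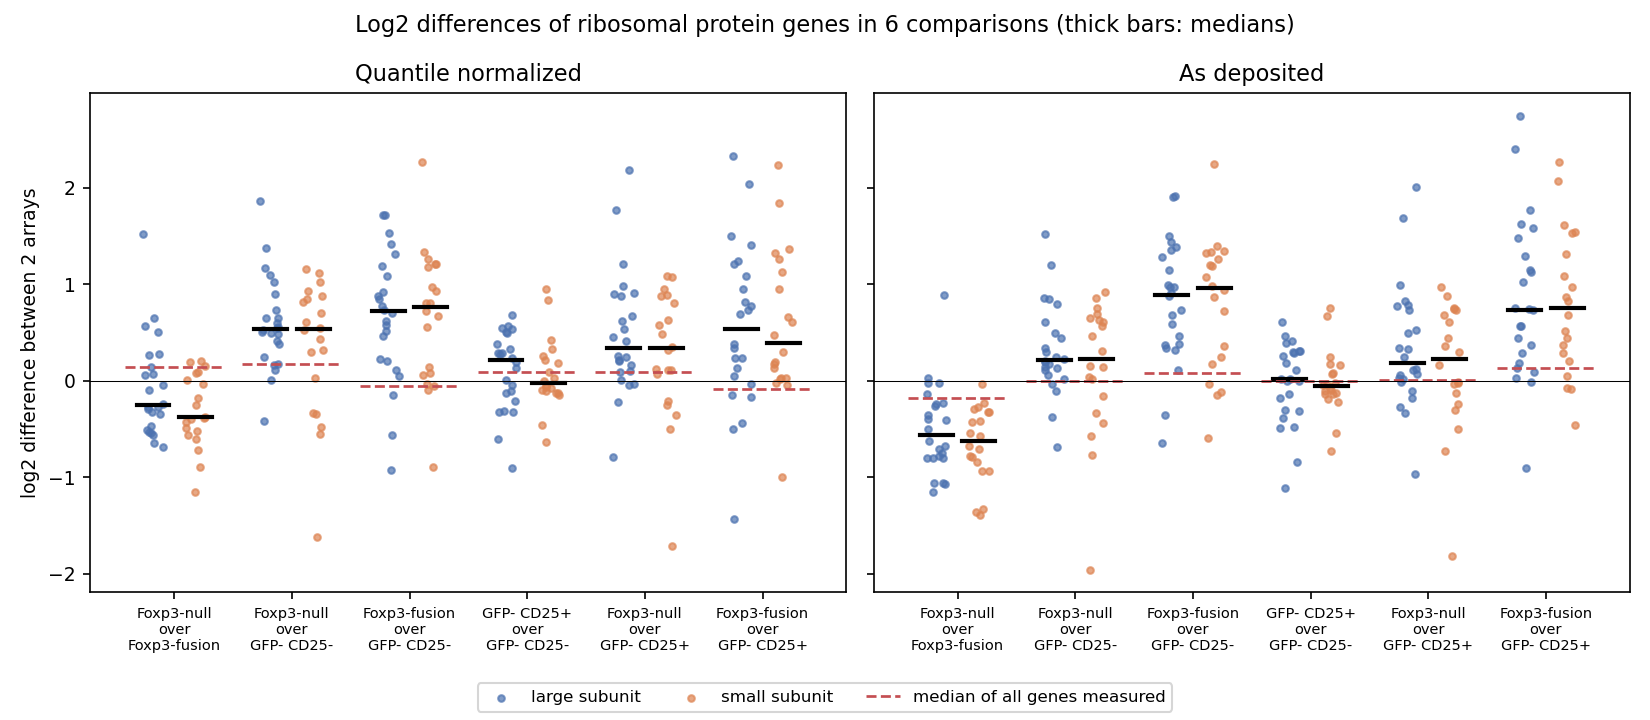
Log2 differences between 2 arrays (y axis) in 6 comparisons (x axis), on the quantile normalized scale (left) and as deposited (right). Points are genes, blue for 24 large and orange for 20 small subunit genes, black bars are their medians and red dashes the median of all genes measured. Medians of the subunits lie together in each comparison, and both lie above that of all genes where a GFP+ is set against a GFP- array.

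The large and small subunit genes had close medians. In Foxp3-fusion over GFP- CD25- cells the median was 0.72 log2 for 24 large subunit genes and 0.76 for 20 small subunit genes, and 7 large and 6 small subunit genes passed 2-fold upward. In Foxp3-null over GFP- CD25- cells both medians were 0.54, with 5 large and 3 small subunit genes at least 2-fold higher. In Foxp3-null over Foxp3-fusion cells they were -0.25 and -0.38. The difference between the subunit medians, large minus small, was widest in GFP- CD25+ over GFP- CD25- cells, at 0.24 log2, and was 0.07 there on the deposited scale. In Foxp3-fusion over GFP- CD25- cells it was -0.04, and -0.46 without probe sets ending in _x_at, _s_at or _a_at, which leaves few members. Within each subunit the genes spread far more than this: in Foxp3-fusion over GFP- CD25- cells from -0.92 to 1.72 for large and from -0.90 to 2.27 for small subunit genes.

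Not all members differed between the arrays. Rps20, a small subunit protein, had the narrowest range of the 44, at 0.11 log2, reading 14.54 in Foxp3-null, 14.46 in Foxp3-fusion, 14.43 in GFP- CD25+ and 14.51 in GFP- CD25- cells. Rps2 and Rpl39 followed with ranges of 0.30 and 0.38. On their brightest probe sets Rps28, Rps29, Rps18 and Rps9, all small subunit genes, were between -0.10 and 0.09 log2 in Foxp3-fusion over GFP- CD25- cells. In Foxp3-null over GFP- CD25- cells they were between -0.55 and -0.33. Over all their probe sets above the floor on every array, the first comparison ran from -0.20 to 0 for Rps28 and 0.09 to 0.40 for Rps29. It ran from 0.06 to 1.04 for Rps18 and -0.86 to 2.32 for Rps9. In the second comparison the highest values were 0.18, 0.59, 0.93 and 1.54 in that order.

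The 4 members with a mean signal of at least 14 log2 (Rpl35, Rps20, Rps28 and Rps29) had a median of 0.02 log2 in Foxp3-fusion over GFP- CD25- cells, and 0 of them were 2-fold apart. The 25 members between 12 and 14 log2 had a median of 0.85 with 10 at least 2-fold higher, where 122 other genes of that signal had a median of -0.36. The 15 members under 12 log2 had a median of 0.62 with 3 at least 2-fold higher. In Foxp3-null over GFP- CD25- cells the 3 medians were -0.16, 0.65 and 0.54 in that order. Signals of the brightest probe sets may be near the upper end of what the array reports, and this was not tested.

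**Figure D3:**
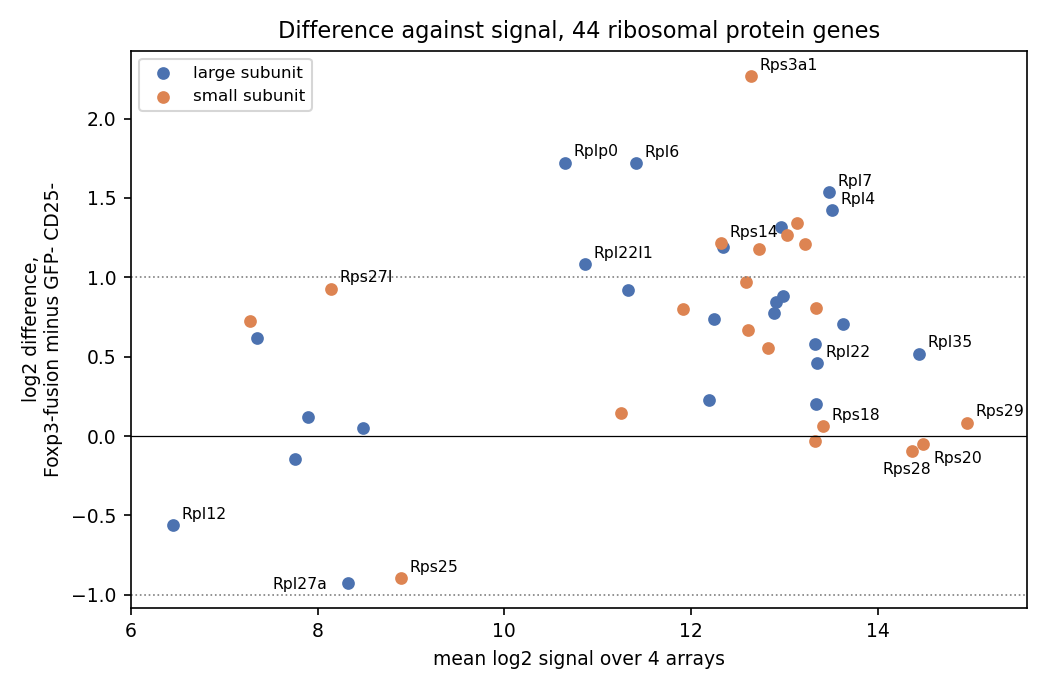
Log2 difference between Foxp3-fusion and GFP- CD25- cells (y axis) against mean log2 signal of the probe set over the 4 arrays (x axis), 1 point per gene, blue for large and orange for small subunit, with dotted lines at 2-fold. The 4 brightest genes lie between -0.10 and 0.52, and the 13 genes at least 2-fold higher have mean signals under 14.

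The choice of probe set mattered for single genes. Of 20 members with several probe sets above the floor on all arrays, 6 had probe sets at least 1 log2 apart in the difference between Foxp3-fusion and GFP- CD25- cells, and 3 had both signs. Rps9 read -0.03 log2 on its brightest probe set, 2.32 on another and -0.86 on the last. Rpl41 ran from -1.33 to 1.31 over 4 probe sets, Rps10 from -0.14 to 2.22 over 6 and Rpl13a, which also serves in a translational silencing complex, from 0.22 to 2.70 over 4. For 18 of the 20 genes some other probe set gave a greater difference than the brightest. At least 1 probe set was 2-fold higher in 14 of the 20 genes, and the brightest was in 5. Taking the greatest of several probe sets raises such counts for any gene. They were not made for other genes with several probe sets, so they show only the spread within a gene.

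Counting every further probe set of a member, 38 of 44 above the floor had the sign of the brightest in Foxp3-fusion over GFP- CD25- cells (86.4%), and 31 of 44 in Foxp3-null over GFP- CD25- cells (70.5%). In Foxp3-null over Foxp3-fusion cells the number was 29 of 45 (64.4%). By the suffix of the probe set, the 17 members read by an _a_at set had a median of 1.08 log2 in Foxp3-fusion over GFP- CD25- cells, the 16 read by an _x_at set 0.37 and the 10 with a plain _at set 0.37. Of these, 9, 3 and 1 were at least 2-fold higher in that order, beside 9.69% of all genes. An _x_at set can also bind other transcripts, and ribosomal protein genes have many near-identical pseudogenes. The part of such binding was not tested. Values of single members are uncertain.

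Paralogs that can replace a core protein were looked at next. Rpl22 read 13.24 in Foxp3-null, 13.58 in Foxp3-fusion, 13.45 in GFP- CD25+ and 13.12 in GFP- CD25- cells, a range of 0.46 log2. Rpl22l1 read 11.04, 11.58, 10.37 and 10.49 in that order, a range of 1.21. The GFP+ arrays were above both GFP- arrays for Rpl22l1 and were not for Rpl22. The 3 Rpl22 probe sets gave 0.46 to 1.24 log2 in Foxp3-fusion over GFP- CD25- cells, against 1.08 for the single Rpl22l1 probe set.

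Rps27l, a p53 target and relative of Rps27, had another pattern. It read 8.45 in Foxp3-null, 8.35 in Foxp3-fusion, 8.38 in GFP- CD25+ and 7.42 in GFP- CD25- cells. The first 3 arrays lay within 0.09 log2, and GFP- CD25- cells alone were low; Foxp3-null cells exceeded them 2.03-fold. All 3 of its probe sets were above 0 in Foxp3-fusion over GFP- CD25- cells, from 0.70 to 1.31.

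Rpl7l1, a nucleolar relative of Rpl7, read 8.75, 8.24, 8.74 and 8.19 over the 4 arrays in the same order, and did not follow Rpl7, which read 13.83, 14.34, 12.94 and 12.81. The paralogs Rpl3l, known from striated muscle, and Rpl39l and Rps4l, known from the germ line, were below the floor on every array. So were the only single-gene probe sets of Rps16 and Rps27, core genes that every cell uses, so these probe sets say nothing of the level of either gene. Rpl3, Rpl5, Rpl10 and Rplp1 were not among the 49 genes.

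Other members with known roles beyond the ribosome were close to the middle of the group on their brightest probe sets. Rpl11, which with Rpl5 binds Mdm2 and so restrains it, read 12.45 in Foxp3-null, 12.69 in Foxp3-fusion, 11.91 in GFP- CD25+ and 11.95 in GFP- CD25- cells. Rps6, the protein phosphorylated by S6 kinases downstream of mTORC1, read 7.40, 7.58, 7.28 and 6.85. Rpl13a read 13.11, 13.15, 12.91 and 12.37 on its brightest probe set. On these probe sets the GFP+ arrays were above both GFP- arrays in all 3, by less than 2-fold. For Rpl13a this depended on the probe set. Another was 2.70 log2 higher in Foxp3-fusion than in GFP- CD25- cells. On a further one Foxp3-fusion cells (11.48) lay below GFP- CD25+ cells (11.71).

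Other translation genes were compared by lists. In Foxp3-fusion over GFP- CD25- cells, the median of 28 measured initiation factors was 0.26 log2, and 7 passed 2-fold upward and 0 downward, beside 9.69% and 5.07% of all genes. The median of 9 elongation factors was 0.55, with 3 upward and 0 downward, beside the same shares. Eif3m and Eif3h, subunits of the initiation complex that docks the small subunit, were 2.78 and 2.68 log2 higher. Eif3h read 10.26 in Foxp3-null, 10.93 in Foxp3-fusion, 8.56 in GFP- CD25+ and 8.25 in GFP- CD25- cells. Eif3m read 4.92, 7.44, 4.85 and 4.67, so it was high on the Foxp3-fusion array alone.

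Of 22 other mRNAs known to start with a 5' TOP tract, 4 passed 2-fold upward and 0 downward in Foxp3-fusion over GFP- CD25- cells, beside 9.69% and 5.07% of all genes, and the median was 0.37 log2. In Foxp3-null over GFP- CD25- cells it was also 4 and 0, beside 10.4% and 7.23%, with a median of 0.65. The lists overlap, and this one too holds Eif3h. It also holds Eef2, the factor that moves the ribosome along the mRNA, which read 11.09 in Foxp3-null, 10.96 in Foxp3-fusion, 9.09 in GFP- CD25+ and 9.50 in GFP- CD25- cells. The snoRNA host gene Snhg6 was lower in Foxp3-fusion than in GFP- CD25- cells, by 0.81 log2.

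Genes that build ribosomes were set beside these. For 60 measured ribosome biogenesis genes the median was 0.14 in Foxp3-fusion over GFP- CD25- cells, with 8 past 2-fold upward and 0 downward, beside 9.69% and 5.07% of all genes. Against the same array, Foxp3-null cells had a median of 0.36, with 10 upward and 2 downward, beside 10.4% and 7.23%. In GFP- CD25+ over GFP- CD25- cells their median was 0.40, where the members had 0.06. Ncl, the nucleolar protein nucleolin, was 3.38-fold higher in Foxp3-null and 4.48-fold higher in Foxp3-fusion than in GFP- CD25- cells. Nsa2, a large subunit assembly factor, was 2.86-fold lower in Foxp3-null and 1.79-fold lower in Foxp3-fusion cells.

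For RNA polymerase I and Myc genes the median was -0.05 in Foxp3-fusion over GFP- CD25- cells, with 1 of 12 at least 2-fold higher, Myc itself, beside 9.69% of all genes. Myc, a transcription factor that drives ribosome production, read 7.07 in Foxp3-null, 8.70 in Foxp3-fusion, 7.62 in GFP- CD25+ and 7.32 in GFP- CD25- cells. For mTORC1 and LARP1 genes 0 of 14 were 2-fold apart in that comparison, beside 9.69% of all genes higher and 5.07% lower, with a median of 0.09.

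The 65 measured genes of the mitochondrial ribosome, a separate machine that translates mitochondrial mRNAs, differed by a median of 0.11 between Foxp3-fusion and GFP- CD25- cells, and 4 passed 2-fold upward, fewer than the 9.69% of all genes, and 0 downward. Between Foxp3-null and GFP- CD25- cells the median was 0.34, and 7 of 60 passed 2-fold upward, near the 10.4% of all genes, and 1 downward. The cytosolic members had the highest of these medians in Foxp3-fusion over GFP- CD25- cells on both scales. In Foxp3-null over GFP- CD25- cells the other 5' TOP mRNAs (0.65) and the mTORC1 and LARP1 genes (0.56) had higher medians than the 0.54 of the members. Over Foxp3-fusion cells, the medians of the Foxp3-null array were -0.22 for initiation factors, -0.17 for elongation factors, 0.06 for other 5' TOP mRNAs and 0.16 for mitochondrial ribosomal proteins. As deposited they were -0.89, -0.46, -0.47 and -0.27 in that order, beside -0.18 for all genes, so the last 2 changed sign with the scale.

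**Figure D4:**
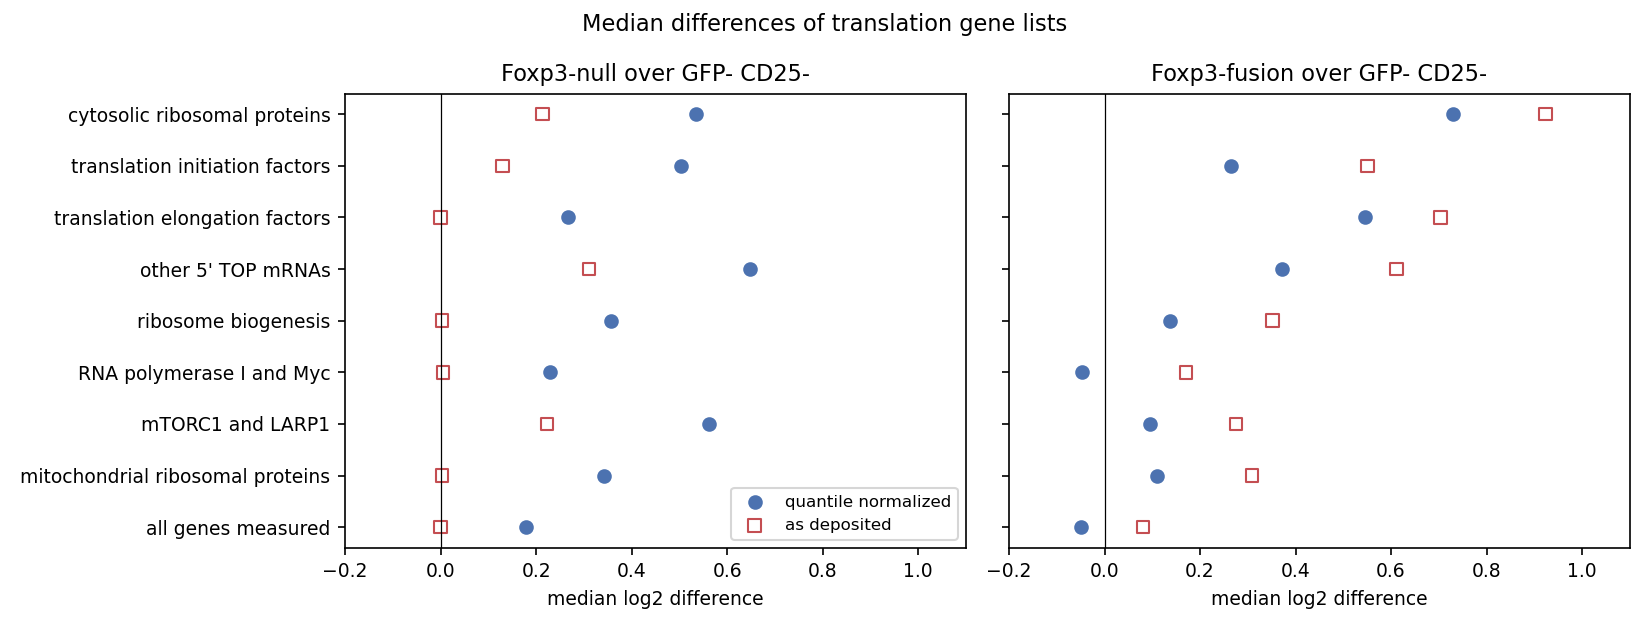
Median log2 difference (x axis) of cytosolic ribosomal protein genes, 7 other translation lists and all genes measured, for Foxp3-null (left) and Foxp3-fusion (right) over GFP- CD25- cells. Filled circles are quantile normalized and open squares deposited values; the members lie at 0.54 and 0.73 on the normalized scale and at 0.21 and 0.92 as deposited, beside all genes at 0.18 and -0.05, and at 0.00 and 0.08.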

How the data were processed

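The deposited table holds 1 value for each of 45101 probe sets and 4 arrays, on a scale taken as log2 from the range of its values. Per the labels' protocols, total RNA was made into biotin-labelled cRNA with 2 rounds of amplification. The authors' summarisation and normalization are not given in the sources used here. Deposited 90th percentiles ran from 7.54 to 8.17, so the log2 values were quantile normalized (Python 3.11.15, pandas 2.3.3, numpy 2.4.6); this assumes equal signal distributions.

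Of the probe sets, 34945 had 1 gene in the platform annotation, 932 several and 9224 none or a control. Symbols were updated through GRCm38.p6 RefSeq, which held 34741 of them. Each gene took the probe set with the highest mean deposited value. The floor, 3.89 log2 (3.95 as deposited), is the 90th percentile, on the array where that is highest, of 86 probe sets for 51 tissue genes silent in T cells; lower values were set to it, and a gene below it on both arrays was not measured. A 2-fold difference was counted, with no test at 1 array per group. All 6 pairs of arrays were compared. Text names, in each comparison, the 4 largest member differences past 2-fold in each direction, the 3 widest and 3 narrowest ranges, paralog pairs and a fixed set of known genes, and the extremes of each translation list; further genes are named to complete a count or a group and were chosen after their values were seen. The members and lists were chosen with earlier results of these data known. The procedure was tested on simulated data.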

Additional observations from a re-analysis of the deposited data

Results flagged for a closer look

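Probe sets that name a ribosomal protein gene together with pseudogenes or unnamed loci were used in no comparison above. There were 99 such probe sets, covering 26 further ribosomal protein symbols, and they are singled out because they carry signal that the comparisons leave out. In Foxp3-fusion over GFP- CD25- cells their median difference was 0.42 log2 over 91 measured. Of these, 20 passed 2-fold upward and 0 downward, beside 9.69% and 5.07% of all genes. For Foxp3-null cells against the same array the median was 0.37, with 16 and 0, beside 10.4% and 7.23%. In GFP- CD25+ over GFP- CD25- cells it was 0.11, with 3 and 0, beside 3.95% and 4.43%. In Foxp3-null over Foxp3-fusion cells the median was -0.11 over 92, with 1 and 2, beside 9.48% and 9.24%. As deposited, the medians in the same order of comparisons were 0.58, 0.15, 0.04 and -0.43.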

How the results depend on the processing

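Counts of members past 2-fold were recomputed under other settings; a count is given where it moved by over 1.5 times. No median over the members moved by 1.5-fold. Most of these medians were themselves under 1.5-fold, so that limit would miss the loss of one. In Foxp3-null over GFP- CD25+ cells the median was 0.34 log2. Without probe sets ending in _x_at, _s_at or _a_at it was 0.10, as was the median over all genes. On deposited values, Foxp3-null over Foxp3-fusion gave 0 higher and 7 lower, Foxp3-null over GFP- CD25- 2 higher, GFP- CD25+ over GFP- CD25- 1 lower, Foxp3-null over GFP- CD25+ 2 higher and Foxp3-fusion over GFP- CD25+ 0 lower. Centred on the brightest 10% of other genes, Foxp3-null over Foxp3-fusion gave 0 lower. With the median over a gene's probe sets, it gave 0 higher and 2 lower, GFP- CD25+ over GFP- CD25- 1 higher and Foxp3-fusion over GFP- CD25+ 0 lower. Without probe sets ending in _x_at, _s_at or _a_at, where fewer members are measured by construction, Foxp3-null over GFP- CD25- gave 2 higher and 2 lower, Foxp3-fusion over GFP- CD25- 3 and 1, GFP- CD25+ over GFP- CD25- 1 lower, Foxp3-null over GFP- CD25+ 1 and 2, and Foxp3-fusion over GFP- CD25+ 4 and 2. There Rpl41 turned to -1.33 log2 in Foxp3-fusion and -1.20 in Foxp3-null over GFP- CD25- cells, Rps3 was -0.01 in Foxp3-null over GFP- CD25+ cells (likewise with the median over probe sets) and Rps10 was just below 0 in Foxp3-fusion over GFP- CD25+ cells, all at least 2-fold higher on their brightest probe sets. Among the other translation lists, the initiation factor median in Foxp3-null over Foxp3-fusion was -0.89 as deposited, against -0.22. At 1.5-fold, Foxp3-null over Foxp3-fusion gave 2 higher and 6 lower, Foxp3-null over GFP- CD25- 19 higher, Foxp3-fusion over GFP- CD25- 26 and 2, GFP- CD25+ over GFP- CD25- 3 and 3, Foxp3-null over GFP- CD25+ 16 and 2, and Foxp3-fusion over GFP- CD25+ 21 and 2. The share of all genes past 1.5-fold was not computed, so these 1.5-fold counts show only how the threshold moves them. The cause was not tested except where stated. No paired analysis was possible because each group has 1 array and no replicate number. Signal over background limits what the probe sets below the floor can show.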
